A study of Rattus norvegicus with 9 samples.

Results

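The genes described here encode 2 families of enzymes that make reactive oxygen and nitrogen species, the NADPH oxidase of phagocytes and the nitric oxide synthases. They were chosen by gene symbol, as every probe that the array files name Cybb, Cyba, Ncf1, Ncf4, Rac2, Nox4, Nos1, Nos2 or Nos3, which gave 9 genes and 10 probes among 19293 symbols and 30367 probes. Nos1 had 2 probes and the other genes had 1 each. For Nos1, the brighter probe by mean log2 signal over the 9 arrays stands for the gene, and the other is given beside it.

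Gene expression was measured on 1-color Agilent arrays in the brains of Sprague Dawley rats at day 14, with 3 rats and 3 arrays in each of 3 groups. Sham rats had the operation without occlusion and received solvent, and in I/R rats the middle cerebral artery was occluded for 2 h and then reperfused. DHI rats had the same occlusion and then received Danhong injection, a herbal preparation of danshen and safflower, each day through the tail vein. The study's methods give the dose by weight in 1 place and by volume in another, the animals as males, and the tissue as the infarcted hemisphere, which is a mixture of lesion, surrounding tissue and infiltrating cells. In such bulk tissue fewer cells of a type and less RNA per cell cannot be told apart. The tissue carried its labelled identity, since 6 of 6 neuronal markers and 5 of 5 astrocyte markers were well above background on every array. All Sham and I/R arrays lay on slide 1 and all DHI arrays on slide 2, so the slide cannot be told apart from DHI, whereas I/R versus Sham was measured within 1 slide. One DHI array, DHI 1, stood apart from the other DHI arrays on the genes below, and values are given with and without it.

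The phagocyte NADPH oxidase moves electrons from NADPH across a membrane onto oxygen and so produces superoxide. Its membrane core is a heterodimer of gp91phox (Cybb) and p22phox (Cyba), which stays silent until cytosolic subunits, among them p47phox (Ncf1) and p40phox (Ncf4), dock on it together with the small GTPase Rac2. In the brain this enzyme is known mainly from microglia and from infiltrating neutrophils and macrophages, while Nox4 is a related oxidase that needs p22phox but not the cytosolic subunits. The nitric oxide synthases make nitric oxide from arginine, and the neuronal (Nos1), inducible (Nos2) and endothelial (Nos3) enzymes are separate genes, of which the inducible gene is known for its response to inflammatory signals.

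The probes on which these genes were measured are 60 bases long, and those shown here stand for the different outcomes below. They are the catalytic oxidase subunit and p40phox, which rose in I/R, Nox4, which was not well above background, and Nos1 and Nos3, which were not called. They are given as the array files hold them, in lower case, with no part marked.
Cybb: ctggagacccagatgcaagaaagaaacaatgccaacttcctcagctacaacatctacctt
Ncf4: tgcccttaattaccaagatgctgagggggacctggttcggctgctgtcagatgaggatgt
Nox4: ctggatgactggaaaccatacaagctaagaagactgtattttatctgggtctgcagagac
Nos1, first probe: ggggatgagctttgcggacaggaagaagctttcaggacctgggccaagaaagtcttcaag
Nos1, second probe: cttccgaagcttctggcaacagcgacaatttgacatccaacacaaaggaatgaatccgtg
Nos3: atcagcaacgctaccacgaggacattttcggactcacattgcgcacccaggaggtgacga
In the rn4 build of the array files the Cybb probe lies at chrX:25518505-25518564, the Ncf4 probe at chr7:116190216-116190275, the first Nos1 probe at chr12:39815023-39815082 and the second at chr12:39810923-39810982. The Nox4 probe is placed over chr1:143584026-143586154, a span of 2129 bases for a probe of 60, so that it does not lie in 1 block of the genome. The remaining probes lie at chr19:52713156-52713215 (Cyba), chr12:23587232-23587291 (Ncf1), chr7:116520067-116520126 (Rac2), chr10:65072394-65072453 (Nos2) and chr4:6159286-6159345 (Nos3). The probes of Cyba, Ncf1 and Rac2 each hold the polyadenylation signal AATAAA, starting at bases 44, 42 and 43. Exon numbers were not analysed here. The accession of each of the 10 probes belongs to the gene of the same symbol in the RefSeq table.

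The oxidase subunits were the members called between I/R and Sham at day 14. Transcripts of all 5 measured phagocyte subunits were 16.4 to 26.3 times as high in I/R as in Sham, and none of the 3 nitric oxide synthases passed the thresholds. In the array data of DHI rats the same 5 subunits were 5.09 to 7.99 times lower than in I/R by the group means, but DHI 1 lay at the I/R level while DHI 2 and DHI 3 lay near Sham. Levels below are log2 intensities minus the 75th percentile of all spots on that array, so that a level of 0 equals this percentile and 1 unit is a doubling. They compare arrays for a given probe and do not compare probes with each other.

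Cybb encodes gp91phox, the subunit that carries the electrons. Its level was -6.91, -7.37 and -7.49 in Sham, -2.31, -2.40 and -3.85 in I/R, and -2.75, -8.14 and -6.66 in DHI 1, DHI 2 and DHI 3. Every I/R value exceeded every Sham value, and the DHI arrays spread from the I/R range to below the Sham range. Of all tested probes 26.7% had every I/R array above every Sham array, and 35.8% had every I/R array below. The probe was well above background on 8 of 9 arrays, the exception being DHI 2, where its intensity was 6.43. In I/R versus Sham the log2 fold change was 4.40 (SE 1.20, 21.2-fold, limma, adjusted p = 0.0404). Sham intensities of this probe were low (14.7 to 21.4), and with normexp background correction at an offset of 50 the log2 fold change was 2.41, still called.

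Cyba encodes p22phox, the partner that stabilizes gp91phox and also serves Nox4. Its level was 1.47, 1.01 and 1.02 in Sham, 5.68, 5.48 and 4.43 in I/R, and 5.08, 1.36 and 2.10 in DHI. I/R lay wholly above Sham, and DHI 1 was above I/R 3 while DHI 2 was within the Sham range. The log2 fold change in I/R versus Sham was 4.03 (SE 0.86, 16.4-fold, limma, adjusted p = 0.0396).

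Ncf1 encodes p47phox, the organizer that is phosphorylated when the oxidase is switched on. Its level was -1.27, -1.33 and -1.30 in Sham, 3.99, 3.77 and 2.50 in I/R, and 3.10, -1.20 and -0.40 in DHI. The Sham arrays had an SD of 0.03, and Ncf1 showed the largest log2 fold change of the members in I/R versus Sham at 4.72 (SE 1.00, 26.3-fold, limma, adjusted p = 0.0396). Of the 3 DHI arrays, DHI 2 and DHI 3 were slightly above every Sham array and far below every I/R array.

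Ncf4 encodes p40phox, the subunit that binds phosphoinositide on the phagosome. Its level was -3.56, -3.88 and -3.95 in Sham, 1.35, 0.79 and -0.47 in I/R, and 0.08, -3.56 and -2.81 in DHI. The I/R arrays were again all above Sham, with a log2 fold change of 4.35 (SE 0.88, 20.4-fold, limma, adjusted p = 0.0396). Rac2, the GTPase of blood cells that completes the active complex, had levels of -1.43, -1.70 and -1.58 in Sham, 3.68, 3.36 and 2.13 in I/R, and 2.80, -1.24 and -0.36 in DHI. Its log2 fold change in I/R versus Sham was 4.63 (SE 0.94, 24.7-fold, limma, adjusted p = 0.0396).

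**Figure D1:**
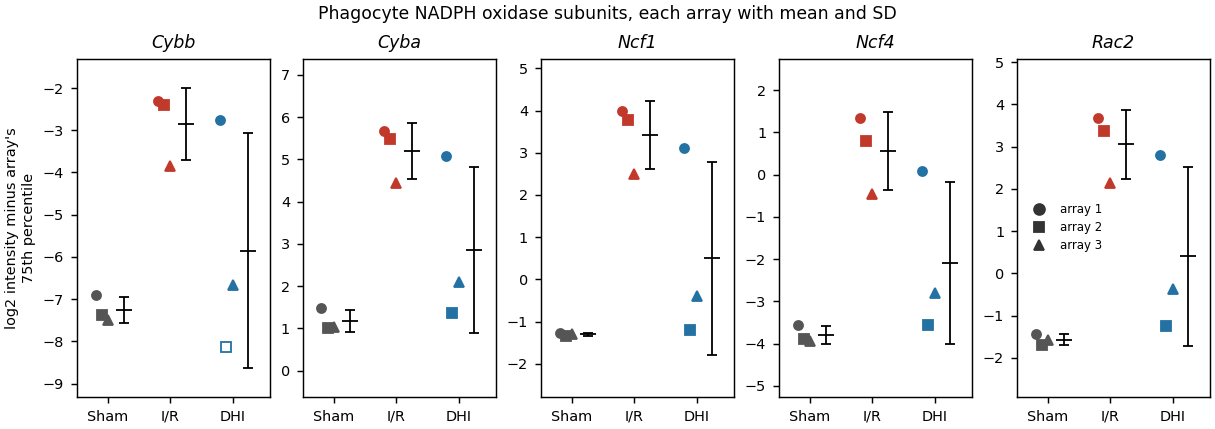
Level of the 5 phagocyte oxidase subunits on each array (y axis, log2 intensity minus the array's 75th percentile) in Sham, I/R and DHI, with the group mean and SD beside the points (n = 3), each panel spanning 8 log2 units. In every panel, where an open symbol marks an array not well above background (Cybb, DHI 2), the 3 I/R arrays lie above the 3 Sham arrays, and DHI 1 lies with the I/R arrays. Of all tested probes 26.7% had every I/R array above every Sham array.

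Testing required a probe well above background in all 3 rats of some group, which 8 of the 9 genes met. A gene was called at the study's thresholds, an unadjusted p under 0.05 and a fold change (FC) over 1.5, and separately at a Benjamini-Hochberg adjusted p under 0.05 over the 23747 probes tested. In I/R versus Sham 5 of the 8 tested members were called higher and 0 lower, on a background of 20.8% of probes called higher and 22.3% called lower. The same 5 passed the adjusted threshold, which 16.7% of probes passed upward and 15.8% downward. The median log2 fold change of the 8 members was 4.19, against -0.10 over all probes. Only 0.69% (Ncf1) to 1.42% (Cyba) of all probes had a larger log2 fold change in this comparison. Without scaling between arrays, and without any one of the Sham arrays, I/R 1, I/R 2 or DHI 3, 0 members passed the adjusted threshold (limma), while 5 or 6 passed the study's thresholds. The 3 groups share 1 estimate of the spread, so the DHI arrays enter this comparison too (Ncf1 SD 0.03 in Sham, 0.80 in I/R, 2.29 in DHI). Without DHI 1 the adjusted p of the 5 subunits was 0.000667 to 0.00137 (limma). In that fit 12140 of 23747 probes passed the adjusted threshold in either direction, against 7696 with all arrays. At the study's thresholds 21.7% of probes were called higher.

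In DHI versus I/R the 5 subunits were called lower at the study's thresholds and 0 members were called higher, on a background of 10.5% of probes called lower and 11.5% called higher. Cybb was 7.99-fold lower, and the log2 fold change was -2.35 for Cyba, -2.92 for Ncf1, -2.66 for Ncf4 and -2.66 for Rac2 (unadjusted p = 0.0169 to 0.0374). The adjusted p was 0.196 for each of them (limma), so none passed the adjusted threshold. With normexp background correction the log2 fold change of Cybb was -1.19 and no longer called, and its call was also lost without any one of the Sham arrays. For all 5 the DHI and I/R arrays overlapped, because DHI 1 exceeded I/R 3. Without DHI 1 the log2 fold changes of Cybb, Cyba, Ncf1, Ncf4 and Rac2 were -4.55, -3.46, -4.22, -3.74 and -3.86, on a background of 19.1% of probes called lower. Their adjusted p lay between 0.00193 and 0.00312 (limma). In that fit 10621 of 23747 probes passed the adjusted threshold, against 1 with all arrays. DHI 1 was singled out on these same genes, so the lower p-values are no independent support. The Cybb fold changes against I/R rest partly on DHI 2, where its probe was not well above background. Without DHI 2, DHI 3 or I/R 1 the count of called subunits was 0, without I/R 2 it was 1 (Ncf4), and by the methods' t-test it was 0.

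In DHI versus Sham 0 of the 8 members were called and 0 had an unadjusted p under 0.05 (limma), against 2.52% of probes called higher and 1.06% called lower. The log2 fold changes of the 5 subunits were all above 0 and ranged from 1.41 (Cybb) to 1.97 (Rac2), with unadjusted p from 0.0691 to 0.277. For Ncf1 and Rac2 every DHI array was above every Sham array, as for 10.3% of all tested probes. Without DHI 1 the subunits differed from Sham by -0.15 (Cybb) to 0.77 (Rac2), where the Cybb value again rests partly on DHI 2. Without DHI 2 all 5 were called higher than Sham at the study's thresholds. Array weights called 4 members and the replicate number as a block 3. The share of all probes called was not computed without DHI 2, with array weights or with the block. These counts therefore have no background beside them. Each pair of comparisons shares the arrays of a group, so these fold changes are not independent of each other.

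**Figure D2:**
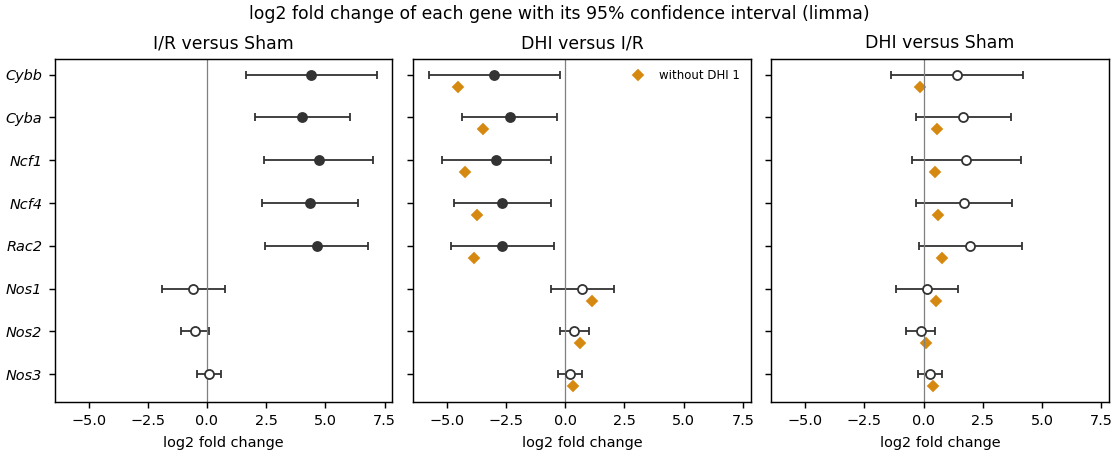
Log2 fold change (x axis) of the 8 tested genes in the 3 comparisons, with 95% confidence intervals from limma (n = 3 per group) and filled circles for genes called at the study's thresholds. Diamonds give the log2 fold change without DHI 1, which moved the 5 subunits further from I/R and closer to Sham.

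The spread of the DHI group had the same shape for every subunit. Each array was placed on a scale on which 0 is the Sham mean and 1 the I/R mean of that gene. On this scale DHI 1 lay between 0.89 (Ncf4) and 1.02 (Cybb), DHI 2 between -0.20 (Cybb) and 0.07 (Rac2), and DHI 3 between 0.14 (Cybb) and 0.26 (Rac2). The Cybb probe was not well above background on DHI 2, and its 2 spots there had an SD of 1.64 log2 units. Its place on DHI 2 is therefore uncertain. The order of the 4 highest arrays was I/R 1, I/R 2, DHI 1 and I/R 3 for all 5 genes. Over the 9 arrays the Pearson correlations among the 5 subunits ranged from 0.984 to 0.999 (10 pairs). These describe arrays that fall into separate groups and share their hybridization, so they carry the group difference as well as any variation within groups.

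Among 15583 genes compared, those whose levels followed Cybb most closely over the 9 arrays were Irf1 (r = 0.9991), an interferon-induced transcription factor, Cxcl16 (r = 0.9989), a chemokine and scavenger receptor, and Slamf9 (r = 0.9981), a receptor of the SLAM family. Cxcl16 had mean levels of -1.94 (Sham), 2.30 (I/R) and -0.51 (DHI), and Slamf9 of -5.04, 1.22 and -3.23.

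Promoter sequence was read for the 6 members that have an entry in the RefSeq promoter table (Cybb, Cyba, Ncf1, Nox4, Nos1 and Nos3), over 250 bases before and 50 bases after the start site in the GRCr8 build. The motifs below were searched on both strands in these windows and in all 33469 windows of the table. They were GAAANNGAA (interferon regulatory factor type, in 9.71% of windows), GAGGAA (core of PU.1 sites, 27.6%), CCAAT (37.5%), TGACGTCA (cyclic AMP response element, 1.83%) and GGGCGG (GC box, 33.1%). The windows of Cybb and Ncf1, subunits that moved together, and of Nos1, which was not called, are shown with motif matches in capitals, which do not overlap each other.
Cybb: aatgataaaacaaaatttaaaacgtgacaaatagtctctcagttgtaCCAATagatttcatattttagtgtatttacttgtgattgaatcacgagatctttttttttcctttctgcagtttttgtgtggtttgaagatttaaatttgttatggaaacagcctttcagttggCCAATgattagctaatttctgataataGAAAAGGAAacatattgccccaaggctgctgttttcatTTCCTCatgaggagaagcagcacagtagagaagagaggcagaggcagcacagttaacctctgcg
Ncf1: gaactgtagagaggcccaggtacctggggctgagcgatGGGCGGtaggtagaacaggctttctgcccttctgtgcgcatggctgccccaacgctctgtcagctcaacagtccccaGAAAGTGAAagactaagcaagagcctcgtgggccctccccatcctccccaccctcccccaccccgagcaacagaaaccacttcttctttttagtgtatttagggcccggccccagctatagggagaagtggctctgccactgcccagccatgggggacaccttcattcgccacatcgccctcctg
Nos1: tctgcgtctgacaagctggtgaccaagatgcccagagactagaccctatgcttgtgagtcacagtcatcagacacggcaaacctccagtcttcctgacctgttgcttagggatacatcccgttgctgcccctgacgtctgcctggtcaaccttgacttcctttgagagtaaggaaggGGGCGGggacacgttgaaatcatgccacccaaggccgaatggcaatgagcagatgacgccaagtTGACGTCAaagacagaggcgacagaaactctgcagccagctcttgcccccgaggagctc
These windows are chrX:16065016-16065315 (minus strand), chr12:28121635-28121934 (plus strand) and chr12:44371788-44372087 (minus strand). The Cybb window held CCAAT at -203 and -79, GAAANNGAA at -52 and, on the opposite strand, GAGGAA at -14, and its GC content was 35.7%. The Ncf1 window held a GC box at -212 and GAAANNGAA at -135, with a GC content of 59.7%. The Cyba window, with 61.0% GC, held GC boxes at -62 and -44 and none of the other motifs, the Nox4 window held GC boxes at -172 and -114, and the Nos3 window held 1 at -106. The Nos1 window held a GC box at -73 and the palindrome TGACGTCA at -9. Such matches describe letters in the windows and were not tested for binding.

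Nox4, the oxidase known for constitutive hydrogen peroxide production, stayed below the well-above-background mark throughout. Its intensity was 2.42 to 4.17 over the 9 arrays, and no fold change is given.

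None of the nitric oxide synthases was called in any of the 3 comparisons. Nos1, the enzyme of a subset of neurons, had levels of -5.41, -6.39 and -6.08 in Sham, -7.34, -6.94 and -5.32 in I/R, and -6.61, -5.27 and -5.57 in DHI. Its I/R arrays covered a wider range than Sham, and I/R 3 was the highest of the I/R and Sham arrays. The log2 fold change was -0.57 in I/R versus Sham (95% interval -1.90 to 0.75, adjusted p = 0.438) and 0.72 in DHI versus I/R (interval -0.61 to 2.04, adjusted p = 0.385). Without I/R 3, Nos1 was called at the study's thresholds in both comparisons, with log2 fold changes of -1.18 and 1.33 (unadjusted p = 0.0354 and 0.0225). With array weights it was also called in both, at -0.82 and 1.38 (limma, adjusted p = 0.0143 and 0.00136).

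The second Nos1 probe, which had 10 spots per array against 1 spot for the first, gave levels of -5.39, -6.20 and -6.13 in Sham, -7.36, -6.86 and -5.62 in I/R, and -6.88, -5.74 and -5.68 in DHI. Its log2 fold change was -0.71 between I/R and Sham, and 0.51 for DHI versus I/R, neither of which was called. The sign of DHI versus Sham differed between the probes, at 0.15 and -0.20, both well inside their intervals (-1.18 to 1.47 and -1.37 to 0.97). For the first probe it turned in 6 of 20 alternatives, among them no scaling (-0.12) and quantile normalization (-0.08).

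Nos2 is the inducible enzyme of activated macrophages. Its level was -5.87, -5.44 and -5.20 in Sham, -5.90, -6.11 and -6.03 in I/R, and -6.13, -5.31 and -5.45 in DHI. All 3 I/R arrays were below all 3 Sham arrays, as for 35.8% of all tested probes. The log2 fold change was -0.51 (95% interval -1.11 to 0.09, adjusted p = 0.146, limma), and intensities of 39.8 to 71.7 were well above background on every array. In this fit the interval of I/R versus Sham leaves out a rise of more than 0.09 log2 units on this probe. Over the alternatives the log2 fold change was -0.69 to -0.31, and this bound holds for the main fit only. Nos2 was called lower in I/R with quantile normalization (-0.66), in the authors' series table (-0.66), with array weights (-0.69) and without Sham 1 (-0.69). In DHI versus I/R the log2 fold change was 0.38 (interval -0.22 to 0.98), or -0.08 without scaling between arrays. Without DHI 1 it was 0.63 and called higher (limma, adjusted p = 0.0449), on a background of 26.2% of probes called higher. In that fit 10621 of 23747 probes passed the adjusted threshold. In DHI versus Sham the log2 fold change of Nos2 was -0.13 (interval -0.72 to 0.47). The sign turned there in 3 of 20 alternatives, among them normexp correction (0.17) and leaving out DHI 1 (0.125).

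Nos3, the enzyme of endothelial cells, had levels of -2.82, -3.24 and -3.21 in Sham, -2.71, -2.98 and -3.34 in I/R, and -3.05, -2.61 and -2.80 in DHI. The 3 groups overlapped, with log2 fold changes of 0.08 in I/R versus Sham (95% interval -0.43 to 0.58), 0.20 in DHI versus I/R (-0.31 to 0.70) and 0.27 in DHI versus Sham (-0.23 to 0.78). Each interval lies within a change of 1 log2 unit in either direction. The sign turned in I/R versus Sham in 3 of 20 alternatives, among them quantile normalization (-0.02), and in DHI versus I/R without scaling (-0.27).

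**Figure D3:**
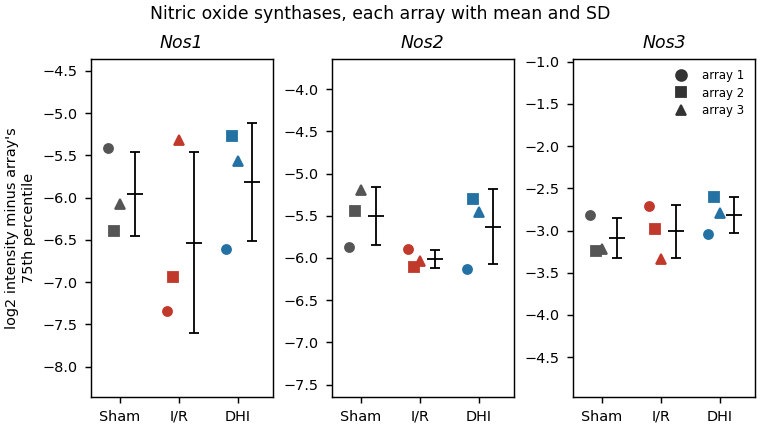
Level of the 3 nitric oxide synthases on each array (y axis, log2 intensity minus the array's 75th percentile, each panel spanning 4 log2 units), with group mean and SD (n = 3). Sham, I/R and DHI overlap for Nos1 and Nos3, and the 3 I/R arrays lie below the Sham arrays for Nos2. Such a separation downward held for 35.8% of all tested probes.

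Across the 9 arrays the correlation with the 5 oxidase subunits was -0.867 to -0.814 for Nos2, -0.669 to -0.618 for Nos1 and -0.082 to 0.034 for Nos3, again over arrays in separate groups. The genes most like each synthase were Jund (r = 0.9884), Polr3a and Actc1 for Nos2, Krt2 (r = 0.9589), Galnt14 and Ccdc148 for Nos1, and Cbln3 (r = 0.9529), Cdk13 and Ganc for Nos3. They are the 3 highest of 15583 genes over 9 arrays, a choice that favors high correlations, and a link to the synthases was not tested.

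Other genes of the oxidase pathway were taken from a list of 17, of which 15 were on the array and 13 were tested. Nox3 and Duoxa2 were not well above background on any array. In I/R versus Sham 7 were called higher and 2 lower, beside 20.8% and 22.3% of all probes, and the median log2 fold change was 0.79.

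Vav1, an exchange factor that loads Rac GTPases in blood cells, rose by 4.94 log2 units in I/R (30.6-fold, adjusted p = 0.0396), and Arhgdib, an inhibitor of nucleotide exchange on small GTPases in leukocytes, rose by 3.37 (10.3-fold). The genes that fell were Prkcb, a protein kinase C isoform also abundant in neurons, by 2.23 log2 units, and Nox1, an oxidase of the colon, by 1.14. The ubiquitous relative of Rac2, Rac1, rose by 0.94. In DHI versus I/R 3 of the 13 were called lower, among them Vav1 (-2.96) and Arhgdib (-2.30), and 2 were called higher, Prkcb (1.56) and Nox1 (1.07), all with an adjusted p of 0.196. Of all probes 10.5% were called lower and 11.5% higher. Without DHI 1, 7 were called lower and 3 higher, beside 19.1% and 26.2% of all probes. The total of 5 called genes was 10 without I/R 3, 0 without I/R 1 or DHI 3, 1 without DHI 2 and 2 without I/R 2.

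The list around nitric oxide held 26 genes of cofactor supply, arginine handling, regulation and signaling, and all 26 were tested. In I/R versus Sham 6 were called higher and 10 lower, beside 20.8% and 22.3% of all probes, so that the share called higher was near that of all probes. The median log2 fold change was -0.53. Gch1, the first enzyme in the synthesis of the cofactor tetrahydrobiopterin, rose by 2.70 log2 units (6.49-fold, adjusted p = 0.0441), the arginine transporter Slc7a2 rose by 2.16 and Cav1, a caveolar protein that binds the endothelial enzyme, rose by 0.99. Gch1 levels were -5.24, -5.47 and -4.31 in Sham, -1.95, -2.01 and -2.96 in I/R, and -2.36, -5.90 and -4.98 in DHI, so that DHI 1 again lay among the I/R arrays.

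The falls were led by Nos1ap, the adaptor of the neuronal enzyme, at -3.28, Prkg2, a cyclic GMP-dependent kinase, at -3.16, and Gucy1a2, a subunit of the nitric oxide receptor guanylyl cyclase, at -2.47. The adjusted p of these 3 was 0.0396, 0.0396 and 0.0447. The Prkg2 probe stood above the background mark on only 1 of 3 I/R arrays, so its value against I/R rests partly on background signal and its place in the order is uncertain. The Nos1ap level was -1.51, -0.96 and -1.20 in Sham, -5.53, -4.69 and -3.28 in I/R, and -3.65, -0.54 and -1.43 in DHI. Every I/R value of Nos1ap was below every Sham value, as for 35.8% of all tested probes. Between DHI and I/R, 5 of the 26 were called higher in DHI and 2 lower, beside 11.5% and 10.5% of all probes, and none passed the adjusted threshold. Among those called higher were Nos1ap (2.63), Dlg4 (2.07), the postsynaptic scaffold to which the neuronal enzyme binds, and Prkg2 (2.32, with the same limit in I/R), and those called lower were Gch1 (-2.10) and Slc7a2 (-1.29). Without DHI 1, 9 were called higher and 5 lower, beside 26.2% and 19.1% of all probes. The total of 7 called genes was 14 without I/R 3, 1 when I/R 1 or DHI 2 was left out, and 2 when I/R 2 or DHI 3 was. In DHI versus Sham 1 gene was called, the cyclic GMP-dependent kinase Prkg1 at -0.79, named here after its value was seen and well above background on only 1 of 3 DHI arrays.

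**Figure D4:**
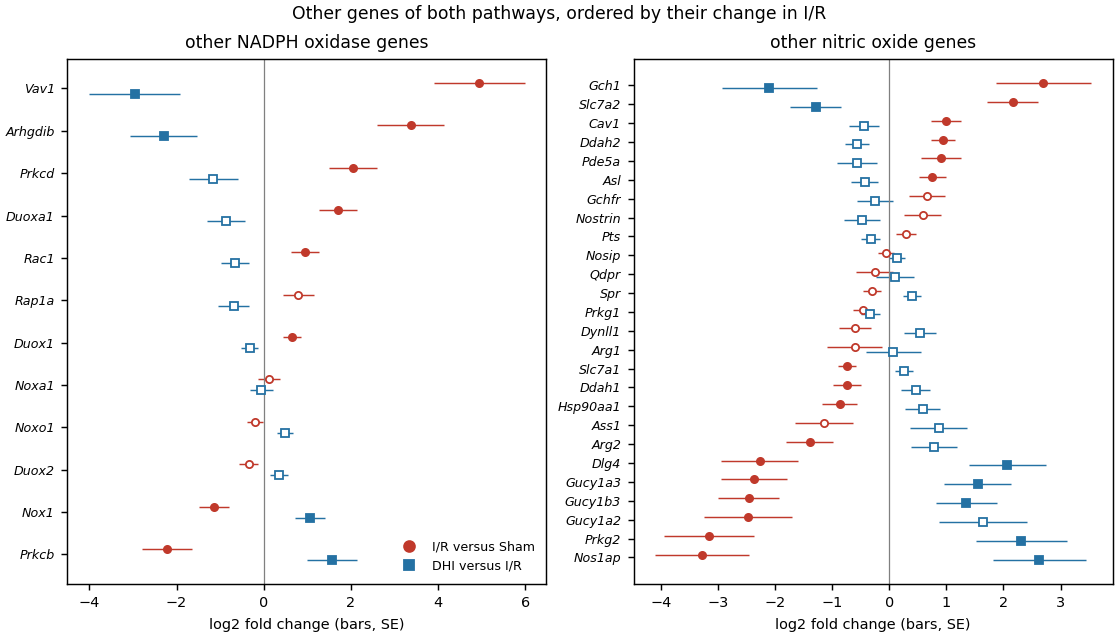
Log2 fold change with SE (x axis) of the other genes of the oxidase list (left, the 13 tested without 1 gene that is not reported) and of the nitric oxide list (right, 26 genes) against Sham (circles, I/R) and against I/R (squares, DHI), with filled symbols for called genes (n = 3 per group). The comparisons share the I/R arrays, so a gene's opposite signs are not independent, and in I/R versus Sham Vav1 and Gch1 lie highest of the genes drawn in their panels and Nos1ap lowest.

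Markers of other cells moved with these results. Of 8 microglia and macrophage markers 7 were called higher in I/R than in Sham, beside 20.8% of all probes. Among them were Aif1 (10.5-fold), Itgam (10.5-fold) and Cd68 (103-fold). Cx3cr1 was not called and was lower on all 3 I/R arrays than in Sham, as were 35.8% of all tested probes. The summed level of the 8 markers, in units of the 75th percentile of the array, was 8.84 to 10.8 in Sham, 39.9 to 115 in I/R and 12.1 to 60.2 in DHI, where DHI 1 gave the highest value. In DHI versus I/R 6 of the 8 were called lower and 0 higher, beside 10.5% and 11.5% of all probes. None of the 8 passed the adjusted threshold there, and the DHI and I/R arrays overlapped for each called marker. Without DHI 1, 7 were called lower and 1 higher, beside 19.1% and 26.2% of all probes.

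Of 8 neutrophil markers 5 were tested and 4 were called higher in I/R, beside 20.8% of all probes. Csf3r stood at 21.1-fold and S100a8 at 4.04-fold. Of the granule proteins of these cells, Camp was called higher in I/R (log2 fold change 0.67, adjusted p = 0.0544), Mpo was not called (-0.31, adjusted p = 0.302, measured above background on only 2 of 3 I/R arrays) and Elane never stood well above background. Between DHI and I/R, Mpo was called higher in DHI (0.94, adjusted p = 0.196) and Csf3r lower (-2.48, adjusted p = 0.196). The summed neutrophil level was 0.0832 to 0.119 in Sham, 0.343 to 0.965 in I/R and 0.151 to 0.431 in DHI. Such sums weigh bright probes most. In I/R this one followed mainly Csf3r, whose mean level was -1.28, against -3.99 for the next brightest, S100a9. Lymphocyte markers gave 3 higher of 5 tested in I/R, beside the same 20.8% of all probes. Their sum was 0.145 to 0.185 in Sham, 0.427 to 0.785 in I/R and 0.173 to 0.595 in DHI.

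All 6 neuronal markers were called lower in I/R than in Sham, beside 22.3% of all probes. In DHI versus I/R all 6 were called higher, beside 11.5% of all probes. None of these neuronal markers passed the adjusted threshold there, and the DHI and I/R arrays overlapped for each. Their summed level was 43.3 to 62.4 in Sham, 3.34 to 23.0 in I/R and 14.8 to 53.3 in DHI. All 5 tested markers of GABAergic interneurons, the cells in which Nos1 is best known, were also called lower in I/R, beside 22.3% of all probes. Of these, 3 passed the adjusted threshold, and Gad1 and Gad2 did not. In DHI versus I/R 3 were called higher, beside 11.5% of all probes, and 0 passed the adjusted threshold. The interneuron sums were 62.7 to 77.1 in Sham, 8.64 to 24.2 in I/R and 15.5 to 71.8 in DHI. Chodl, a marker of the Nos1-positive subset, was never well above background. Of 7 endothelial markers 3 were called higher in I/R, Tek, Pecam1 and Vwf, beside 20.8% of all probes. The endothelial sums were 5.19 to 6.35 in Sham, 6.78 to 10.9 in I/R and 5.66 to 7.38 in DHI. Astrocyte markers summed to 35.4 to 38.2 in Sham, 54.0 to 73.3 in I/R and 36.5 to 57.9 in DHI. In I/R 3 of the 5 were called higher and 1 lower, beside 20.8% and 22.3% of all probes. The part of each cell type in the changes of the oxidase, synthase and pathway genes was not tested.

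**Figure D5:**
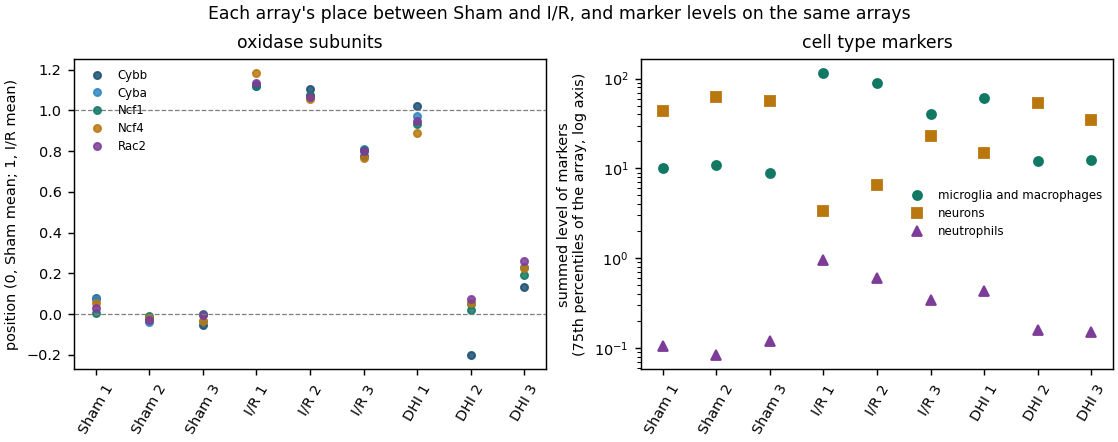
Left, for each array (x axis), its place between the Sham mean (0) and the I/R mean (1) of the 5 oxidase subunits (y axis), and right, summed level of microglia and macrophage, neuronal and neutrophil markers on the same arrays (y axis, log scale, in units of the array's 75th percentile). DHI 1 lies at 0.89 to 1.02 on the left and has the highest microglia and macrophage sum of the DHI arrays on the right.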

How the data were processed

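The 9 arrays, of 1 color each (3 Sham, 3 I/R, 3 DHI), were grouped by the labels. For each array the authors deposited Agilent Feature Extraction 10.7.1.1 output, in which the intensity of every spot is corrected for background and not scaled between arrays. The deposited series table gives log2 values normalized by a method that the sources used here do not name (medians 7.575 to 7.576 on all arrays), used only as an alternative. Between 75.2% and 78.9% of probes were well above background per array, with no saturated spot (0), and the number of arrays limits the precision.

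Outlier and control spots were left out, the spots of a probe were averaged as log2 of the processed signal, and the array's 75th percentile was subtracted. A probe was called well above background on an array if at least a share of 0.5 of its spots was. In R 4.3.3, limma 3.58.1 fitted 1 model over the 9 arrays (6 residual degrees of freedom) with 3 contrasts and Benjamini-Hochberg adjustment. Tested probes lacked 0.0126% of their values, none of them a member's. The fit was also run on simulated data, in which all arrays of a probe had the same spread, taken from Sham and no lower than the median. The wider spread of the DHI arrays was not simulated, so the fit was not tested under it. The p-values measure the spread between rats given as separate samples.

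The genes, lists and markers were chosen with earlier results of these data known. Named were all members, in each list and in I/R versus Sham and DHI versus I/R the 3 called genes that rose most and the 3 that fell most, and the genes most correlated with Cybb, Nos1, Nos2 and Nos3; Rac1 was added after its value was seen, and 1 gene of the oxidase list is counted but not reported here. Alternatives were quantile normalization, no scaling, normexp (offset 50), the series table, other filters, 2-group fits, the methods' t-test, array weights, a block for the replicate number, gene means, and leaving out each array. No column of values was left unused (0).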

Additional observations from a re-analysis of the deposited data

How the results depend on the processing

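The 5 oxidase subunits kept their calls in I/R versus Sham under every alternative that tested them (4 to 7 members called), although requiring all 9 arrays well above background left out Cybb. The counts called in I/R versus Sham stayed within 1.5 times for the oxidase list (7 to 10, against 9) and the nitric oxide list (13 to 18, against 16). Members past the adjusted threshold in I/R versus Sham were 5, with 0 without scaling between arrays and 0 to 5 when each array was left out. Leaving out DHI 1 kept all 5, at a lower adjusted p, in a fit where 12140 of 23747 probes passed.

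Counts in DHI versus I/R depended on the fit. Members called were 5, with 3 in the fit of only the 2 groups compared, 0 by the methods' t-test and 0 to 6 when each array was left out. The oxidase list gave 5, with 8 without scaling, 3 in the 2-group fit, 10 with array weights, 0 by the methods' t-test and 0 to 10 over left-out arrays. The nitric oxide list gave 7, with 12, 4, 18 and 0 under the same settings and 1 to 14 over left-out arrays. In DHI versus Sham 0 members were called, with 4 under array weights and 0 to 5 over left-out arrays. The cause of these shifts was not tested, beyond the fewer arrays in the reduced fits. Apart from the fit without DHI 1, the share of all probes called was not computed under the alternatives. Their counts therefore cannot be set against a background. Without scaling the median of all probes was -0.36 in DHI versus I/R, and Nos2 and Nos3 changed sign there (-0.08 and -0.27) without being called.

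The replicate block (replicate number as a block) gave 3 members called in DHI versus Sham, against 0, and moved no other count by over 1.5 times. Same-numbered arrays correlated at -0.34 to 0.48 after removing group means, so the numbers were not taken to pair the rats. Slide as a block was not run, because I/R versus Sham lies on slide 1 and slide 2 holds DHI alone. With 3 arrays per group, smaller differences were not detectable.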
